A study of Mus musculus with 15 samples.

Results

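Genes that mark the fibroblasts of the leptomeninges and of the brain's perivascular spaces were followed in hippocampal RNA. They were taken from a list of symbols and not by their values: Dcn, Lum, Col1a1, Col1a2, Col3a1, Igf2, Slc6a13, Slc22a6 and Aldh1a2, which are 9 of the 55401 genes in the files. All 9 were among the 19536 genes that passed the filter on low counts.

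The RNA came from the hippocampus of 15 female mice, whose age the paper's methods give as 18 to 20 months. The paper gives a higher approximate age where it discusses spine density. Tg2576 mice, labelled Tg2576 +/+, carry human APP with the Swedish mutation under the prion promoter, and their negative littermates, labelled Tg2576 -/-, are called WT here. By stomach tube they received each day, for 5 weeks, either sesame oil (vehicle) or docosahexaenoic acid (DHA) at 450 mg/kg. Vehicle went to 4 WT and 4 Tg2576 mice and DHA to 4 WT and 3 Tg2576 mice, each a separate animal with a library of its own. The genotype is thus a transgene in the whole animal and not one aimed at fibroblasts, and its level in fibroblasts was not measured. Total counts per mouse ranged from 17372864 to 46596489. Markers of hippocampal neurons were abundant in every mouse, with Camk2a, a synaptic kinase of excitatory neurons, between 3215 and 5181 CPM (counts scaled to library size, after TMM). The summed CPM of 16 such neuronal genes ran from 5333 to 7648, whereas that of 16 choroid plexus epithelial genes ran from 73.8 to 6050, an 82-fold range that overlapped between all 4 groups.

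Fibroblasts line the pia and arachnoid and follow penetrating vessels in the perivascular space. They deposit fibrillar collagen, which is assembled from chains that wind into a triple helix, and small leucine-rich proteoglycans such as decorin and lumican bind these fibrils and set their spacing. Leptomeningeal cells also carry solute transporters at the border with the cerebrospinal fluid, make retinoic acid through the enzyme encoded by Aldh1a2, and secrete insulin-like growth factor 2. A hippocampal dissection holds few such cells, in the adherent pia, the hippocampal fissure and around vessels. In RNA from whole tissue, fewer fibroblasts and less RNA per fibroblast cannot be told apart.

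The genes lie on 7 chromosomes of GRCm38, in GENCODE vM25 coordinates as the files give them. Dcn (ENSMUSG00000019929.16) at chr10:97479609-97518143 and Lum (ENSMUSG00000036446.5) at chr10:97565128-97572703 are neighbours on the plus strand, 46985 bases apart. The collagen genes are Col1a1 (ENSMUSG00000001506.10) at chr11:94936224-94953042, Col1a2 (ENSMUSG00000029661.16) at chr6:4504814-4541544 and Col3a1 (ENSMUSG00000026043.18) at chr1:45311538-45349706, all on the plus strand. Igf2 (ENSMUSG00000048583.16) is the one gene of the 9 on a minus strand, at chr7:142650766-142666816. Slc6a13 (ENSMUSG00000030108.14) lies at chr6:121300227-121337733, Slc22a6 (ENSMUSG00000024650.5) at chr19:8618039-8628299 and Aldh1a2 (ENSMUSG00000013584.5) at chr9:71215789-71296243. Counts were made over exons. Of the exonic bases of Igf2, 62.8% are shared with Gm49394, an overlapping gene model on the same strand, which was counted at 0 in every mouse, so the level of Igf2 rests on the other bases. No other member shared more than 1.44% of its exonic bases with another gene.

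The 250 bases before the RefSeq start (GRCm38.p6) are given for the 4 members that have only 1 such window, 5′ to 3′ on the plus strand. The window of Col1a2 lies inside the gene as counted, which begins at base 4504814. Capitals mark 2 textbook promoter motifs, CCAAT and TATAAA, searched on both strands.

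Col1a2, chr6:4505368-4505617: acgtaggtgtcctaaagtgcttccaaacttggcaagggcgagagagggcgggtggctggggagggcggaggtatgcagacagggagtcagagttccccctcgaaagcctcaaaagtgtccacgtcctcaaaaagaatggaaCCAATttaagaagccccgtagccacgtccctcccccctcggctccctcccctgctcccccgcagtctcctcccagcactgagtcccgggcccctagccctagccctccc
Col3a1, chr1:45311288-45311537: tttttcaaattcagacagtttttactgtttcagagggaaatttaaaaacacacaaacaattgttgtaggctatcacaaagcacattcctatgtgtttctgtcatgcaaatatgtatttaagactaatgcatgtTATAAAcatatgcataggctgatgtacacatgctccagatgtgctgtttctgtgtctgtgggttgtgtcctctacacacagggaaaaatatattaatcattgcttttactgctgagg
Slc22a6, chr19:8617746-8617995: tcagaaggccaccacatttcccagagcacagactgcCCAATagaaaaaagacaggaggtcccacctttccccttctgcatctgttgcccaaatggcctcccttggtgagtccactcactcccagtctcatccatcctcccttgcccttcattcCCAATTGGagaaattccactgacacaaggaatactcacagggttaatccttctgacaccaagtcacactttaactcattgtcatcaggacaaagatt
Aldh1a2, chr9:71215539-71215788: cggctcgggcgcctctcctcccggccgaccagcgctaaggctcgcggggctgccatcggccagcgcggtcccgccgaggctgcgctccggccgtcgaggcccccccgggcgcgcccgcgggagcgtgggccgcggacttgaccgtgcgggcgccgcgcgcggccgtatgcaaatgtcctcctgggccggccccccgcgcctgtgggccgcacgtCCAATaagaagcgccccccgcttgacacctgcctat

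Of the 9 genes, 6 had 11 such windows, and a CCAAT or its complement stood in 5 of the 11, 1 window in each of 5 genes, against 33.8% of 32851 mouse windows of this length. It began 109 bases before the start of Col1a2 and 36 bases before that of Aldh1a2. In Slc22a6 it began at 214 and 97 bases, and the latter overlaps a match on the other strand. The motif also stood in 1 of 3 windows of Slc6a13 and in 1 of 4 windows of Igf2. TATAAA was found for Col3a1 alone, 117 bases before its start, against 12.4% of all windows. Each match is a description of letters only.

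Per length of exon, the mean level over the 15 mice was highest for Dcn (17.7 TPM), followed by Slc6a13 (9.24), Aldh1a2 (8.49), Lum (4.0), Col1a1 (3.94), Slc22a6 (3.32), Col1a2 (2.13), Col3a1 (0.619) and Igf2 (0.556). The TPM of Igf2 divides by its whole exonic length, including the 62.8% shared with Gm49394. Its TPM is therefore likely too low, and its last place in this order is uncertain. The CPM of each gene follow, always in the order of mice 1 to 4, or 1 to 3 in the Tg2576 DHA group. Dcn encodes decorin. Its level was 10.4, 11.1, 30.6 and 19.6 CPM in WT vehicle mice 1 to 4 and 18.7, 43.5, 27.5 and 23.1 CPM in WT DHA mice 1 to 4. In Tg2576 vehicle mice 1 to 4 it was 17.8, 46.5, 32.7 and 9.35 CPM, and in Tg2576 DHA mice 1 to 3 it was 21.7, 51.0 and 55.5 CPM. Every pair of groups overlapped, although the 2 highest mice were both Tg2576 DHA mice. By group mean, the order was Tg2576 DHA (42.7 ± 18.4 CPM, SD, n = 3), WT DHA (28.2 ± 10.8, n = 4), Tg2576 vehicle (26.6 ± 16.4, n = 4) and WT vehicle (17.9 ± 9.45, n = 4). Neighbours in this order differed by less than the larger SD of the pair.

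Lum encodes lumican, which binds the same fibrils. It was read at 1.64, 1.93, 3.38 and 4.03 CPM in WT vehicle mice, and at 1.85, 2.99, 3.21 and 1.34 CPM in WT DHA mice. Tg2576 vehicle mice had 1.59, 3.75, 3.95 and 1.54 CPM, and Tg2576 DHA mice had 2.23, 3.37 and 3.25 CPM. The highest mouse was a WT vehicle mouse, and the group means lay between 2.35 and 2.95 CPM. Per kilobase of exon, Dcn exceeded Lum in every mouse, by 2.04 to 7.22 times (ratio of TPM, median 4.07).

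Type I collagen is built from the products of Col1a1 and Col1a2. Col1a1 stood at 7.11, 4.45, 7.26 and 5.90 CPM in WT vehicle mice and at 4.14, 8.96, 6.0 and 5.85 CPM in WT DHA mice. It stood at 6.70, 12.9, 8.29 and 4.55 CPM in Tg2576 vehicle mice and at 4.64, 12 and 6.27 CPM in Tg2576 DHA mice. Mouse 2 of each Tg2576 group was above the other 13 mice, and the remaining Tg2576 mice lay within the range of the WT mice.

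The same 2 mice led for Col1a2. WT vehicle mice had 7.39, 3.48, 6.49 and 4.27 CPM of Col1a2, and WT DHA mice had 3.61, 9.22, 8.17 and 3.74 CPM. Tg2576 vehicle mice had 4.54, 15.6, 9.45 and 2.11 CPM, and Tg2576 DHA mice had 4.82, 18.4 and 6.04 CPM. The Tg2576 vehicle group thus held the lowest mouse of all 15 and the second highest. As TPM, Col1a1 exceeded Col1a2 in all mice, by 1.23 to 4.08 times with a median of 1.97. The ratio was 1.56 and 1.23 in the mice with the most Col1a2 and 4.08 in the mouse with the least.

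Col3a1 encodes the chain of type III collagen, found with type I in pliable tissue. Its level was even in WT vehicle mice, at 0.991, 0.870, 1.08 and 0.722 CPM, and spread out in the other groups. WT DHA mice had 1.06, 2.21, 1.76 and 0.864 CPM, Tg2576 vehicle mice 0.908, 4.33, 2.49 and 0.732 CPM, and Tg2576 DHA mice 0.936, 3.96 and 1.86 CPM. In Tg2576 vehicle mice, 2 of 4 lay within the range of the WT vehicle mice and 2 lay above it.

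Igf2 encodes a secreted growth factor and rested on few counts. It was counted 78, 4, 22 and 6 times in WT vehicle mice and 8, 21, 21 and 8 times in WT DHA mice. It was counted 18, 79, 20 and 2 times in Tg2576 vehicle mice and 19, 39 and 30 times in Tg2576 DHA mice. In CPM these are 1.68, 0.193, 0.743 and 0.181 in WT vehicle, 0.352, 0.682, 1.09 and 0.384 in WT DHA, 1.02, 2.55, 0.859 and 0.0813 in Tg2576 vehicle, and 0.684, 1.15 and 1.16 in Tg2576 DHA mice. The extremes, both in the Tg2576 vehicle group, were mouse 2 and mouse 4, and at such counts the sampling error alone is wide.

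Both next members are solute carriers of leptomeningeal cells. Slc6a13 takes up GABA and taurine. Its level was 5.88, 4.93, 5.91 and 6.14 CPM in WT vehicle mice and 4.67, 6.53, 8.64 and 4.13 CPM in WT DHA mice. In Tg2576 vehicle mice it was 5.28, 18.6, 9.63 and 4.39 CPM, and in Tg2576 DHA mice 4.03, 15.8 and 4.84 CPM. The WT vehicle mice differed among themselves by 1.24 times at most and the Tg2576 vehicle mice by 4.25 times.

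Slc22a6 encodes an organic anion transporter, best known from the kidney. WT vehicle mice had 3.17, 2.22, 1.93 and 2.44 CPM, and WT DHA mice had 1.32, 6.07, 3.57 and 0.864 CPM. Tg2576 vehicle mice had 1.93, 10.2, 3.35 and 1.87 CPM, and Tg2576 DHA mice had 1.08, 11.4 and 2.25 CPM. Mouse 2 of each Tg2576 group had 4.53 and 5.07 times the level of the median mouse, and no other mouse reached 3 times.

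Aldh1a2 encodes the retinaldehyde dehydrogenase that makes retinoic acid. It was at 4.13, 1.64, 4.39 and 4.48 CPM in WT vehicle mice and at 1.14, 5.85, 6.52 and 2.02 CPM in WT DHA mice. It was at 4.54, 14.6, 6.06 and 2.28 CPM in Tg2576 vehicle mice and at 2.38, 13.7 and 4.30 CPM in Tg2576 DHA mice. The order of the mice was much like that of Col1a1, with the same 2 mice far above the rest.

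**Figure D1:**
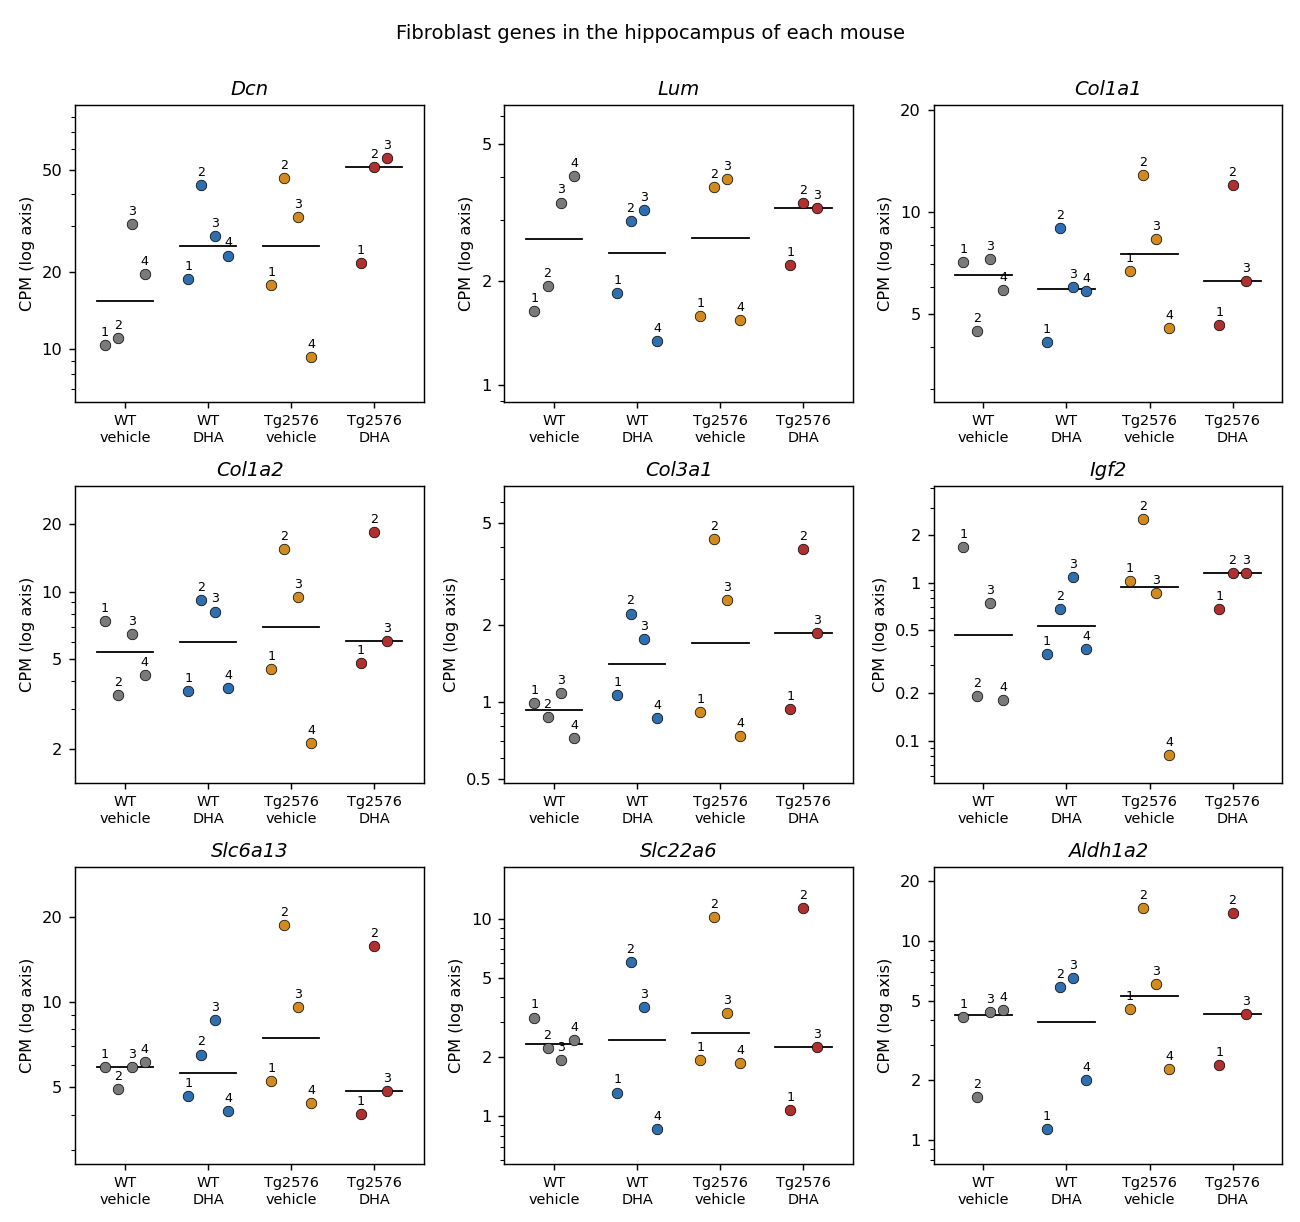
Level of each of the 9 fibroblast genes in CPM (log axis) for every mouse, by group (n = 4, 4, 4 and 3), with the replicate number above each point and a line at the group median. Mouse 2 of the Tg2576 vehicle group and mouse 2 of the Tg2576 DHA group are among the 2 highest of 15 for 7 of the 9 genes each, and all groups overlap for every gene.

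By group mean, both Tg2576 groups stood above both WT groups for 7 of the 9 genes, all but Dcn and Lum. Of these 7, the group medians did so for Col1a2, Col3a1, Igf2 and Aldh1a2, and not for Col1a1, Slc6a13 and Slc22a6. The medians of Lum also did so, narrowly, at 2.67 CPM in Tg2576 vehicle and 3.25 in Tg2576 DHA mice. They were 2.66 CPM in WT vehicle and 2.42 in WT DHA mice. Those of Dcn did not. Slc6a13 averaged 9.49 ± 6.52 CPM (SD) in Tg2576 vehicle (n = 4) and 8.22 ± 6.56 in Tg2576 DHA mice (n = 3), and 5.99 ± 2.04 and 5.72 ± 0.534 in WT DHA and WT vehicle mice (n = 4 each). Its medians were 7.45, 4.84, 5.60 and 5.90 CPM in the same order. For Aldh1a2 the means were 6.86 ± 5.37, 6.81 ± 6.08, 3.88 ± 2.69 and 3.66 ± 1.35 CPM and the medians 5.30, 4.30, 3.93 and 4.26 CPM. Means of neighbouring groups differed by less than the larger SD of the pair for each of these 7 genes.

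The mice ordered themselves in much the same way for most members. Over the 9 genes, the mean z score of log2 CPM ran from -1.21 in Tg2576 vehicle mouse 4 to 1.69 in Tg2576 vehicle mouse 2, the whole range of the study within a single group. Tg2576 DHA mouse 2 followed at 1.53, and Tg2576 vehicle mouse 3 and WT DHA mouse 2 stood at 0.681 and 0.615. Relative to the median mouse, the median member was at 3.17 times in Tg2576 vehicle mouse 2, at 2.68 times in Tg2576 DHA mouse 2 and at 0.518 times in Tg2576 vehicle mouse 4. Lum departed from this order, with its highest values in WT vehicle mouse 4 and Tg2576 vehicle mouse 3. Dcn was also highest in another mouse, Tg2576 DHA mouse 3.

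This spread between mice was large for the members when set beside other genes. The SD of log2 CPM over the 15 mice was 0.49 for Col1a1, 0.54 for Lum, 0.67 for Slc6a13, 0.82 for Col3a1, 0.83 for Dcn, 0.84 for Col1a2, 1.01 for Aldh1a2, 1.04 for Slc22a6 and 1.12 for Igf2. The median gene had an SD of 0.26, and the members lay between the 74.3 and the 97.8 percentile of all genes. The biological coefficient of variation removes the counting error that the counts as given imply. It was 32.6% for Col1a1 to 72.6% for Slc22a6, against 17.7% for the median gene. Mates of a read pair may have been counted singly, so some counting error may remain in it, above all for low genes. For 7 members, a smaller share of the variance of log2 CPM lay between the 4 groups than for the median gene. For Dcn and Col3a1 the share was larger. The groups took 30.7% of the variance of Dcn and 22.9% of that of Col3a1, and between 5.40% (Slc22a6) and 13.8% (Aldh1a2) for the other 7, against 21.9% for the median gene.

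Whether the members moved together was asked over the 36 pairs. All 36 Pearson correlations of log2 CPM over the 15 mice were above 0, from 0.35 to 0.92, with a median of 0.72, and Spearman's rho ran from 0.27 to 0.92 with a median of 0.70. By a two-sided permutation test with 100000 resamples, 35 pairs had an adjusted p (Benjamini-Hochberg over the 36 pairs) under 0.05 for r, and 29 had one for rho. The exception for r was Igf2 with Lum (r = 0.35, rho = 0.27, adjusted p = 0.201). Since the points share mice, a mouse that is high for one gene is high for most, and the pairs are not independent of each other.

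The closest pair joined different functions, and the next 3 joined collagens or transporters with each other. Col1a1 and Aldh1a2 had r = 0.92 (rho = 0.85, p = 2e-05, adjusted p = 0.000144), and r = 0.88 without the 2 mice farthest from the median of Aldh1a2. The chains Col1a1 and Col1a2 of one fibril had r = 0.91 (rho = 0.91, p = 1e-05, the smallest the permutations can give), and r = 0.81 without the 2 farthest mice. Col1a2 and Col3a1 had r = 0.91 (rho = 0.88, p = 1e-05), and r = 0.89 without the 2 farthest. The transporters Slc6a13 and Slc22a6 had r = 0.90 (rho = 0.92, p = 3e-05), and r = 0.76 without the 2 farthest. Dcn and Lum, neighbours on the chromosome, reached r = 0.71 (rho = 0.63, p = 0.00369, adjusted p = 0.00664), and r = 0.66 without the 2 farthest.

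Igf2, Lum and Dcn stood further off. The median r with the other 8 was 0.64 for Igf2, 0.64 for Lum and 0.67 for Dcn, and between 0.83 and 0.87 for the other 6. Igf2 was closest to Col1a2 (r = 0.81, rho = 0.76), and Dcn to Col3a1 (r = 0.80, rho = 0.80). Whether these medians differ between members was not tested.

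The 2 highest mice carried part of the likeness but not its sign. In the other 13 mice all 36 correlations remained above 0, from 0.20 to 0.84, with a median of 0.63. Within groups, as deviations from the group means, they ran from 0.33 to 0.94 with a median of 0.79. Leaving out the 2 mice farthest for each pair gave 0.075 to 0.89, with 30 of 36 above 0.5 and the lowest again for Igf2 with Lum.

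**Figure D2:**
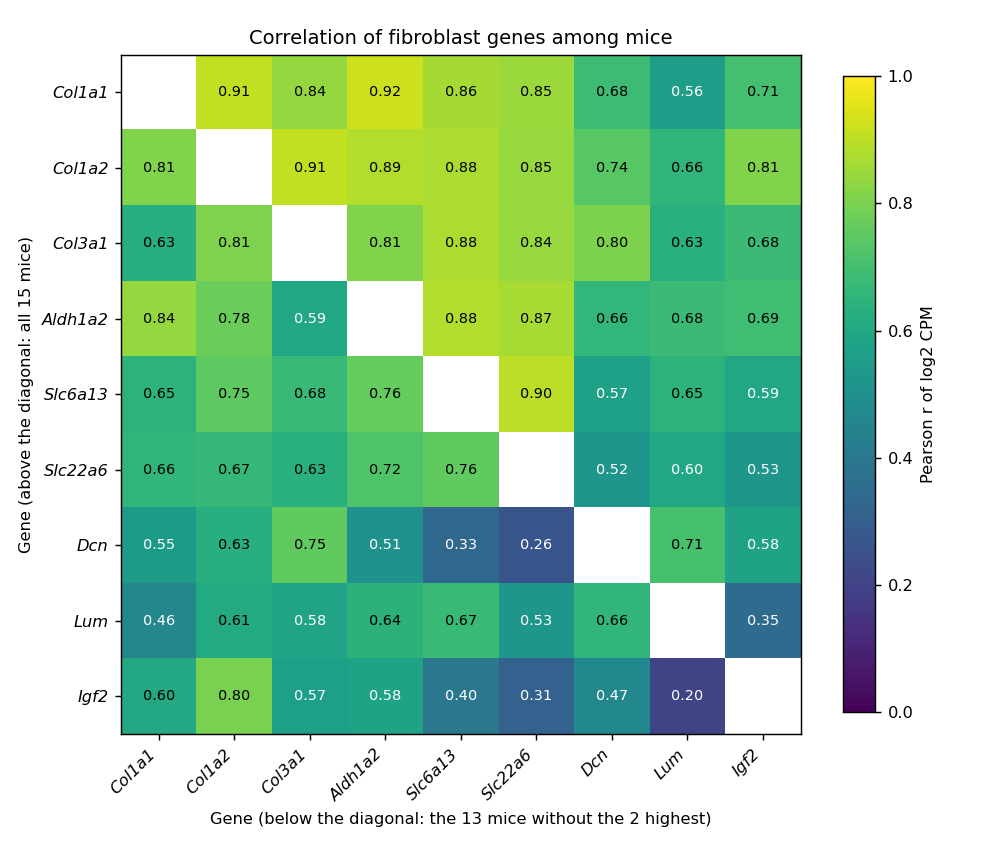
Pearson r of log2 CPM for each pair of fibroblast genes, over all 15 mice above the diagonal and over 13 mice, without Tg2576 vehicle mouse 2 and Tg2576 DHA mouse 2, below it. Values above the diagonal range from 0.35 (Igf2 with Lum) to 0.92 (Col1a1 with Aldh1a2), and those below it from 0.20 to 0.84.

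Each member was then set against the mean of the other 8, beside all other genes. Col1a2 ranked first of 19528 genes by its r of 0.96, ahead of every gene outside the set, and it held r = 0.93 without the 2 highest mice. Aldh1a2 ranked 4 (r = 0.92), Col3a1 and Col1a1 each ranked 5 (r = 0.92 and 0.91), Slc6a13 ranked 8 (r = 0.89) and Slc22a6 ranked 16 (r = 0.85). Dcn ranked 105 (r = 0.74), Igf2 165 (r = 0.69) and Lum 232 (r = 0.67). These ranks are over the same 15 mice and are given as a description.

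The 10 genes outside the set that were most like its mean included 4 of the extracellular matrix. Fmod, which encodes another small proteoglycan of collagen fibrils, had r = 0.95 and ran from 1.84 to 22.6 CPM. Gjb2, a gap junction gene of leptomeningeal cells, had r = 0.94. Colec12, a scavenger receptor gene, had r = 0.93, and Bgn, which encodes biglycan, had r = 0.92. Txnip, the thioredoxin-interacting protein gene, which many cell types express, had r = 0.91. Slc6a20a, a proline transporter gene, had r = 0.90, and Bmp7, a growth factor gene, had r = 0.89. The transcription factor gene Osr1 and the proteoglycan gene Ogn had r = 0.88, and Mgp, the matrix Gla protein gene, had r = 0.87. Without the 2 highest mice these 10 values lay between 0.72 and 0.91. Of the 24 fibroblast identity genes, 16 had an r above 0.5. So did 14 of 16 choroid plexus genes, 7 of 10 border macrophage genes, 10 of 17 meningeal transporters and 7 of 12 arachnoid barrier genes. Without the 2 highest mice these counts were 12, 7, 4, 5 and 6, against 4.69% of all genes tested. For all genes tested the median r with the member mean was 0.0049, and 6.42% of them had an r above 0.5.

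Marker lists of other cells differed widely in likeness to the member mean. The median r was 0.73 for 24 fibroblast identity genes, 0.66 for 10 genes of border macrophages, 0.62 for 17 other meningeal transporters, 0.60 for 12 arachnoid barrier genes and 0.57 for 16 choroid plexus genes. It was 0.46 for 32 other matrix genes, 0.40 for 9 ependymal genes, 0.27 for 15 mural cell genes, -0.020 for 14 endothelial genes, -0.31 for 7 blood cell genes and -0.35 for 16 genes of hippocampal neurons. It was 0.29 for collagen modification, 0.25 for the IGF axis, 0.19 for retinoid genes and 0.10 for markers of neighbouring brain regions. Lists of cells at the brain's borders thus had the high medians, and that of endothelium, which lines the vessels that perivascular fibroblasts follow, lay near 0. Whether the lists differ was not tested. Pdgfra, which oligodendrocyte precursors also express, was the second most abundant of the identity list and had r = 0.44, at 24.3 to 48.2 CPM. Without the 2 highest mice the median was lower for each of the 5 lists named first, at 0.48 for the identity genes, 0.38 for the border macrophages, 0.44 for the transporters, 0.39 for the arachnoid barrier and 0.49 for the choroid plexus. It was 0.38 for the matrix genes, and 0.43, 0.29 and 0.20 for the ependymal, mural and retinoid genes, slightly above their values in all mice.

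**Figure D3:**
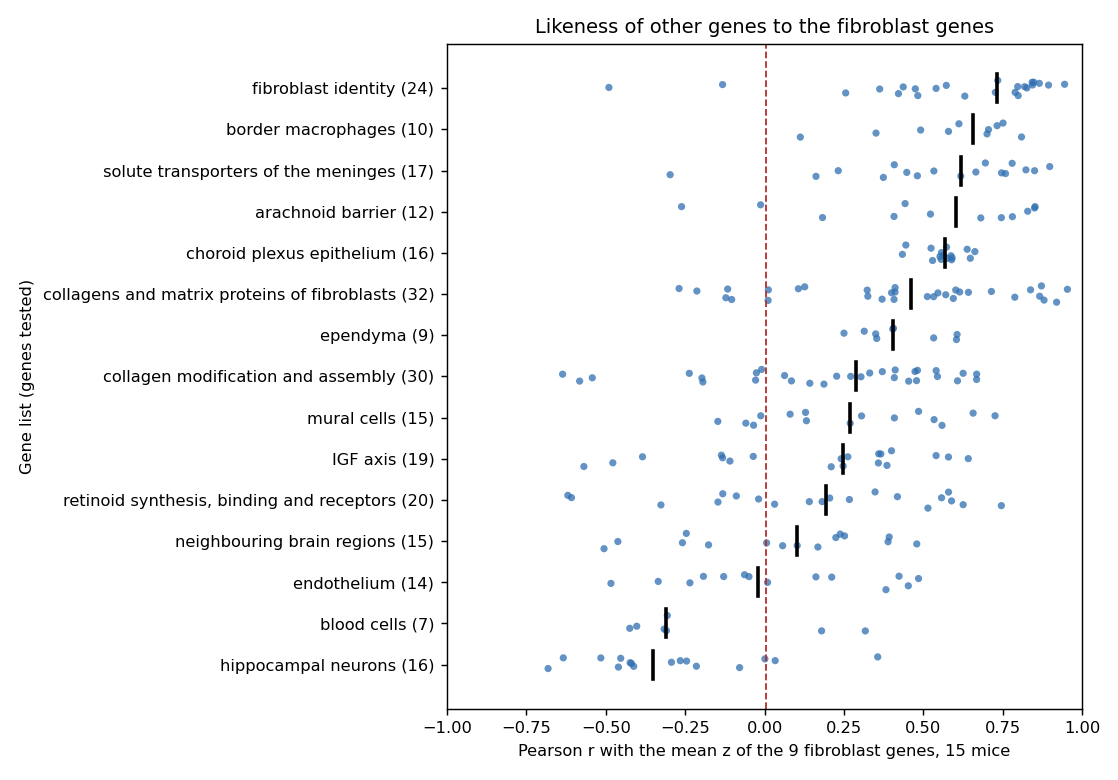
Pearson r of each list gene (points) with the mean z score of the 9 fibroblast genes over 15 mice, by list with the number of genes tested, the list median as a black bar and the median of all genes tested (0.0049) as a dashed line. Fibroblast identity genes have the highest median (0.73) and hippocampal neuron genes the lowest (-0.35), and single genes spread widely within most lists.

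Igf2 followed the choroid plexus more closely than the other members did by this measure. The choroid plexus, a villous tissue in the ventricle beside the hippocampus, has its own stroma and makes Igf2, and its epithelium secretes transthyretin, the product of Ttr. The median r with the 16 choroid plexus genes was 0.81 for Igf2 (0.66 to 0.88), 0.61 for Col1a2 and Aldh1a2, and 0.35 to 0.48 for the other 6. Without the 2 highest mice it was 0.79 for Igf2 and between 0.17 and 0.57 for the others. With Ttr, which ran from 33.5 to 5603 CPM, Igf2 had r = 0.79 and Dcn r = 0.47. The 4 mice with the least Igf2 CPM were WT vehicle mice 2 and 4, WT DHA mouse 1 and Tg2576 vehicle mouse 4, and their summed choroid plexus CPM was 105, 190, 73.8 and 154. The 2 mice with the most Slc22a6 had sums of 3332 and 3415, but Tg2576 DHA mouse 1 had a sum of 5311 with only 1.08 CPM of Slc22a6 and 4.03 CPM of Slc6a13. The part of choroid plexus tissue in the levels of these genes was not tested.

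**Figure D4:**
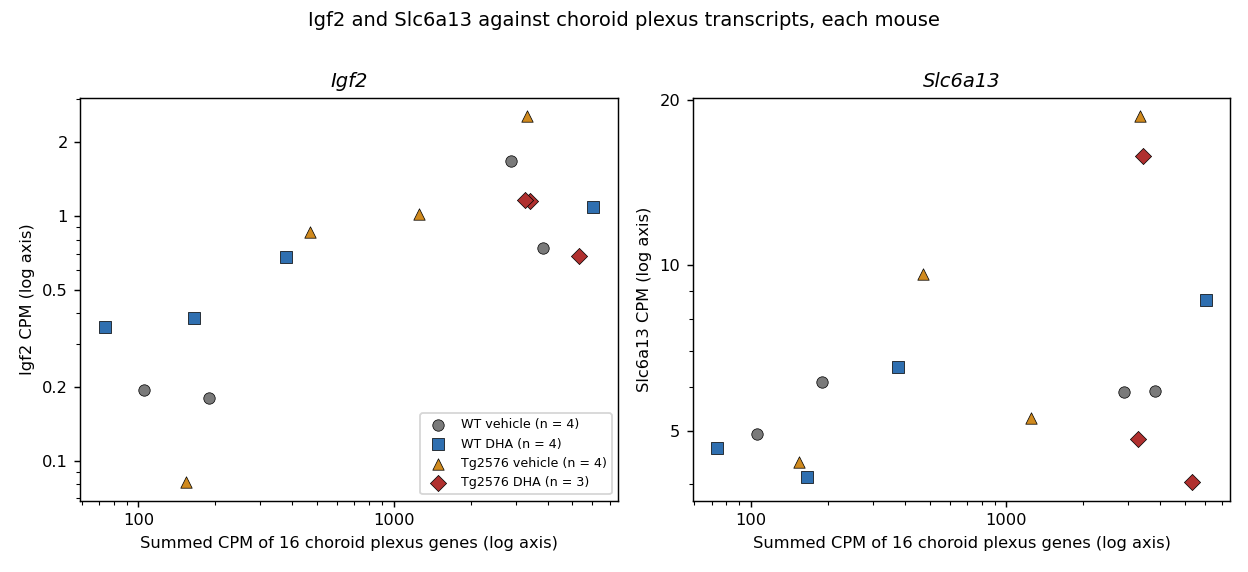
Level of Igf2 (left) and Slc6a13 (right) in CPM against the summed CPM of 16 choroid plexus genes, both on log axes, with a point for each of 15 mice and a marker for each group. The 4 mice with the least Igf2 have sums from 73.8 to 190, while the 2 mice with the most Slc6a13 and the mouse with the least have sums of 3332, 3415 and 5311. In WT DHA mouse 3, Ttr makes up 5603 of the sum of 6050 CPM.

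The comparison of Tg2576 with WT mice under vehicle asked whether the transgene went with a change in these genes. None of the 9 had a p under 0.01 in the quasi-likelihood test of edgeR, against 3.09% of all genes tested. DESeq2 and limma-voom also called none. Only 1 gene, Col3a1, had a p under 0.05, against 10.7% of all genes. Its mean was 2.12 ± 1.68 CPM (SD, n = 4) in Tg2576 vehicle mice and 0.916 ± 0.155 CPM (n = 4) in WT vehicle mice. The log2 fold change was 1.22 (SE 0.52, 95% confidence interval 0.12 to 2.32, edgeR p = 0.0315, adjusted p = 0.406), and an exact two-sided permutation test over the mice gave p = 0.314. The call depended on single mice. Without Tg2576 vehicle mouse 4, which was low for most members, the log2 fold change of Col3a1 was 1.53 and its p in edgeR fell under 0.01 (adjusted p = 0.442). Without Tg2576 vehicle mouse 2 it was 0.59 (adjusted p = 0.655).

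For the other members under vehicle the log2 fold change was -0.0097 for Lum, 0.39 for Col1a1, 0.55 for Col1a2, 0.57 for Dcn, 0.65 for Igf2, 0.74 for Slc6a13, 0.84 for Slc22a6 and 0.90 for Aldh1a2. Thus 8 of 9 estimates were above 0, with a median of 0.65 against 0.0003 for all genes, but apart from Col3a1 every confidence interval held 0. The sign of Lum turned without scaling factors (0.021). Without Tg2576 vehicle mouse 2, 5 of 9 estimates were above 0 and the median was 0.070.

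Markers of other cells and regions also moved in this comparison. Of 16 hippocampal neuron genes, 13 had an estimate below 0 (median -0.22), and 3 were lower in Tg2576 mice at p under 0.01. These were Prox1, a transcription factor gene of dentate granule cells (-0.46, SE 0.12, edgeR adjusted p = 0.198), Zbtb20, a transcription factor gene of hippocampal neurons (-0.63, SE 0.20, adjusted p = 0.304), and Nectin3, an adhesion gene (-0.39, SE 0.13, adjusted p = 0.310). Nectin3 falls outside the rule for named genes and was chosen after its values were seen. Of 15 genes of neighbouring brain regions, 1 was called, Nxph4, which was higher (0.74, SE 0.23, edgeR adjusted p = 0.285). Among all genes tested, 3.09% were called. The summed CPM of the hippocampal neuron genes was 5678 to 6404 in Tg2576 vehicle mice and 6401 to 7648 in WT vehicle mice. Of 16 choroid plexus genes, 14 had an estimate below 0 (median -0.24), and none had a p under 0.01. The part of these differences in the values of the members was not tested.

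Under DHA, the comparison of genotypes again called none of the 9 at p under 0.01 (edgeR, DESeq2 and limma-voom), against 1.75% of all genes, and none at p under 0.05, against 6.86%. All 9 estimates were above 0, from 0.29 for Col1a1 to 0.81 for Aldh1a2, with a median of 0.61 and adjusted p-values from 0.858 to 0.907. The estimates rested on Tg2576 DHA mouse 2. Without it, 6 of 9 were below 0, the median was -0.19, and Slc22a6 moved from 0.72 to -0.85. Dcn, Lum and Igf2 remained above 0 without that mouse. Among choroid plexus genes, 16 of 16 had an estimate above 0 in this comparison, with a median of 1.25 and none at p under 0.01. Their summed CPM was 3274 to 5311 in Tg2576 DHA mice, within the 73.8 to 6050 of WT DHA mice. Among the neuron genes, Wfs1 (-0.40, edgeR adjusted p = 0.390) and Lct (-0.98, adjusted p = 0.560) were lower at p under 0.01, as was Prkcd of the neighbouring regions (-0.58, adjusted p = 0.527). S100a8, a neutrophil gene of the blood list, was higher (2.39, edgeR adjusted p = 0.548). Lct falls outside the rule for named genes and was chosen after its values were seen. The part of these genes and of the choroid plexus in the values of the members was not tested. With 4 mice against 3, the exact permutation test cannot go below p = 0.0571, and with 4 against 4 not below p = 0.0286.

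DHA was compared with vehicle within each genotype. In WT mice none of the 9 had a p under 0.01 in any of the 3 tools, against 1.38% of all genes in edgeR, and none had a p under 0.05, against 5.92%. The largest estimates were 0.69 for Col3a1 (SE 0.53, edgeR adjusted p = 0.887) and 0.66 for Dcn (SE 0.52, adjusted p = 0.888). The other 7 lay between -0.23 and 0.29, and the median of the 9 was 0.073. Leaving out WT DHA mouse 2 turned it to -0.21. Of the neuron and region markers, Prox1 (-0.37) was lower and Wfs1 (0.31) and Nxph4 (1.0) were higher with DHA at p under 0.01. Of 16 choroid plexus genes, 15 had an estimate below 0, with a median of -0.26 and none at p under 0.01. The part of all these markers in the values of the members was not tested.

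In Tg2576 mice none of the 9 had a p under 0.01 in any of the 3 tools, against 0.353% of all genes in edgeR, and none had a p under 0.05, against 3.16%. There were 5 estimates above 0 and 4 below, with a median of 0.077. The estimate for Dcn was 0.68 (SE 0.55, 95% confidence interval -0.53 to 1.88, edgeR adjusted p = 0.999), close to its value in WT mice, and the other 8 lay between -0.21 and 0.30. Single mice of either group moved the set as a whole. Without Tg2576 vehicle mouse 2, all 9 estimates were above 0 with a median of 0.67, and without Tg2576 DHA mouse 2, 7 of 9 were below 0 with a median of -0.58. Without both, 5 were above 0 and the median was 0.0099. Of the neuron and region markers, Prkcd was lower with DHA at p under 0.01 (-0.69, edgeR adjusted p = 0.999). All 16 choroid plexus genes had an estimate above 0, with a median of 0.99 and none at p under 0.01. Their summed CPM was 3274 to 5311 in Tg2576 DHA mice and 154 to 3332 in Tg2576 vehicle mice. The part of Prkcd and of the choroid plexus in the values of the members was not tested.

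The interaction asked whether the effect of DHA differed between genotypes. It had no member at p under 0.01 in any of the 3 tools, against 0.829% of all genes in edgeR, and none at p under 0.05, against 5.12%. Estimates ran from -0.61 (Col3a1, SE 0.75, edgeR adjusted p = 0.887) to 0.34 (Lum, SE 0.55, adjusted p = 0.914), with a median of -0.089. Among choroid plexus genes, 16 of 16 had an interaction estimate above 0 (median 1.29), with none at p under 0.01. The part of the choroid plexus in the values of the members was not tested. The confidence intervals bound what these groups can show. Over all members they reached from -1.84 to 2.52 on the log2 scale in the 4 comparisons of groups, and from -2.57 to 2.34 for the interaction. Several-fold differences in either direction thus lay within the intervals of the most variable members. For Col1a1, the least variable, the interval was -0.30 to 1.08 for genotype under vehicle and -0.68 to 0.71 for DHA in WT mice.

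**Figure D5:**
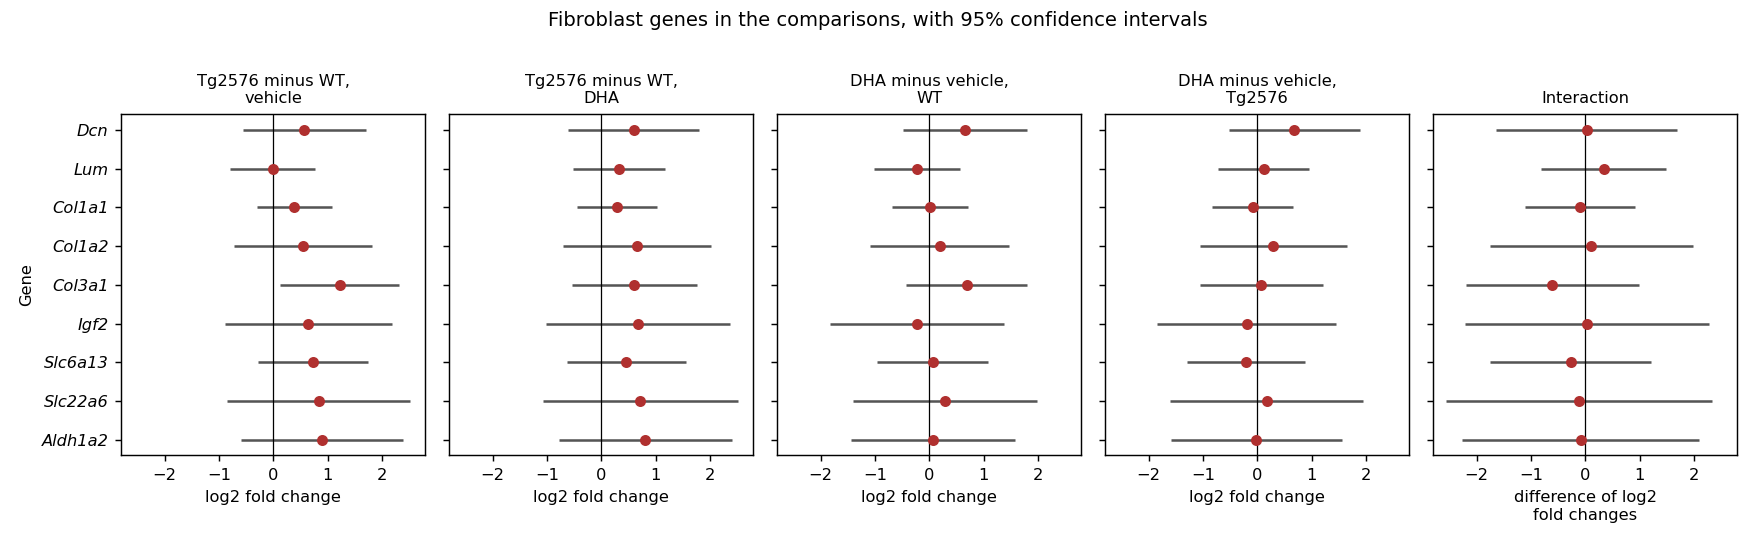
Log2 fold change of each fibroblast gene (points) with its 95% confidence interval (lines) in the 4 comparisons and, at the right, the difference of log2 fold changes for the interaction, from edgeR's fit of 15 mice. The interval leaves out 0 for Col3a1 under vehicle (0.12 to 2.32) and holds 0 for every other gene and comparison.

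Other genes of the same pathways were taken from fixed lists. Of 32 other collagens and matrix proteins, 3 passed p under 0.01 for genotype under vehicle, against 3.09% of all genes tested. Each of the 3 was higher in Tg2576 mice. Col6a1, which encodes a chain of the beaded-filament collagen type VI, had a log2 fold change of 1.03 (SE 0.23, edgeR adjusted p = 0.162), and Col6a2, a second chain, 1.10 (SE 0.29, adjusted p = 0.201). Fbln5, an elastic fibre gene, had 0.96 (SE 0.31, edgeR adjusted p = 0.290). The likeness of Col6a1 and Col6a2 to the member mean was r = 0.41 and 0.40. The median over the 32 genes was 0.21 in that comparison. Under DHA none passed, and DHA in WT mice passed none. DHA in Tg2576 mice passed 1, Col6a3, which was lower (-1.52, SE 0.50, edgeR adjusted p = 0.999), against 0.353% of all genes tested. Col6a3 falls outside the rule for named genes and was chosen after its values were seen.

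Of 30 genes for collagen modification and assembly, Loxl2, a cross-linking enzyme gene, passed p under 0.01 and was higher in Tg2576 mice under DHA (1.45, SE 0.41, edgeR adjusted p = 0.536), and Ppib, a prolyl isomerase gene of the secretory pathway, was higher with DHA in WT mice (0.72, SE 0.20, edgeR adjusted p = 0.540). No other gene of that list passed in any comparison. Of all genes tested, 1.75% passed for genotype under DHA and 1.38% for DHA in WT mice. The list included Leprotl1, for which no part in collagen assembly is known. The lists of 24 fibroblast identity genes, 17 meningeal transporters and 19 genes of the IGF axis had no gene at p under 0.01 in any of the 5 comparisons. For the identity genes, 18 of 24 had an estimate above 0 for genotype under vehicle (median 0.22) and 20 of 24 under DHA (median 0.52).

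The retinoid list holds the genes that act before and after Aldh1a2. Cyp26b1, the enzyme gene that breaks down retinoic acid, passed p under 0.01 and was lower in Tg2576 mice under vehicle (-0.69, SE 0.15, edgeR adjusted p = 0.145), as was Stra6, a retinol uptake receptor gene (-0.54, SE 0.13, edgeR adjusted p = 0.170). Stra6 was also lower with DHA in WT mice (-0.59, SE 0.13, edgeR adjusted p = 0.376) and had an interaction of 0.78 (SE 0.19, adjusted p = 0.845). Aldh1a2 had an estimate of 0.90 (SE 0.69, edgeR adjusted p = 0.682) under vehicle, and the r of Stra6 with the member mean was 0.032. None of the other 18 retinoid genes tested passed. Of all genes tested, 3.09% passed for genotype under vehicle, 1.38% for DHA in WT mice and 0.829% for the interaction. Ttr, which carries retinol, belongs to this list and to that of the choroid plexus.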

How the data were processed

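RNA from the hippocampus of 15 mice was sequenced on 1 lane. Per the file headers, the deposited values are raw counts per gene that the authors made with featureCounts 1.6.0 over the exons of GENCODE vM25 (GRCm38), with no strand and no paired-end option; per the labels, STAR 2.6.1c aligned the reads and FastQC 0.11.8 checked them. Between 74.1% and 79.1% of counts from 1 to 50 were even in each mouse, and 103 of the 135 member values. Labels give a SMARTER kit, the paper a TruSeq Stranded kit. Symbols were found for 55141 of 55401 gene identifiers.

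The counts were fitted with edgeR 4.0.16 in R 4.3.3 as 1 model of all genes kept by filterByExpr (minimum count 10), with TMM factors of 0.961 to 1.03, robust quasi-likelihood and 1 coefficient per group, which gave 5 two-sided comparisons. Adjusted p-values are Benjamini-Hochberg over all 19536 genes tested. The study's threshold, an unadjusted p under 0.01, was the call, and an adjusted p under 0.05 a second call, which no member passed in any comparison. SE is the log2 fold change over the square root of F. Correlations used log2 CPM with a prior count of 2, with permutation tests of 100000 resamples, and single genes were compared by exact permutation tests. TPM divides counts by exonic length. Promoter windows came from RefSeq (GRCm38.p6), and the set at hand held none for Dcn, Lum and Col1a1. Precision is set by 3 or 4 mice per group and, for low genes, by the counts printed.

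Members and lists were chosen with earlier results of these data known. Named genes are the members, up to 3 genes per list that passed a p of 0.01, by lowest p, the 10 genes most like the member mean, and the 2 most abundant genes of a list. Alternatives were RLE scaling, no scaling factors, DESeq2 1.42.0, limma-voom (limma 3.58.1), no filter, a fit of the compared groups, the replicate number as a block, a prior count of 0.5, Spearman's rho, CPM without logs, deviations from group means, and each mouse left out; leaving out 2 high mice was added after seeing the data. The workflow was tested on simulated data. Plots used matplotlib 3.10.9.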

Additional observations from a re-analysis of the deposited data

Results flagged for a closer look

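Aldh1a2 in WT vehicle mice had 1 value far from the others. WT vehicle mouse 2 had 1.64 CPM of Aldh1a2, while the other 3 mice of the group lay between 4.13 and 4.48 CPM, so the gap made up 0.877 of the range of the group. It was the only one of 27 group-by-gene sets of 4 mice to pass Dixon's test at the 95% level, and chance flags about 1 in 20 sets. That mouse was below the median mouse for every member, and its count for Aldh1a2 was 34.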

How the results depend on the processing

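Over 114 recounts of called members in the 5 comparisons, 113 gave 0 as with all mice. The exception was genotype under vehicle, where leaving out single mice gave 0 to 1, the 1 being Col3a1 without Tg2576 vehicle mouse 4; that fit has fewer mice, and the cause was not tested. In the other 4 comparisons leaving out any mouse gave 0. Of 1026 estimates of single members under the alternatives, 120 changed sign, 86 of them on leaving out 1 mouse, and none had a call on either side. The smallest adjusted p under any alternative was 0.219. Other scalings moved the median of all genes by at most 0.036. With the replicate number as a block the count of called members was 0 in each comparison. The median member estimate was 0.077 for DHA in Tg2576 mice, and -0.19 with the block. For DHA in WT mice it was 0.073, and -0.095 with the block. For genotype it was 0.65 in vehicle and 0.61 in DHA mice, and 0.43 and 0.28 with the block. For the interaction it was -0.089, and -0.019 with the block. The deviations of same-numbered mice had r from -0.24 to 0.21 over 21 pairs, 4 of them above 0.1. With 3 or 4 mice per group these r cannot decide whether the numbers pair mice. Mouse 2 had the highest mean z score of its group in all but WT vehicle, where it had the lowest. The exact permutation test cannot reach p under 0.01 with these group sizes, so its counts of 0, with a prior count of 2 or 0.5, say nothing of stability.

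The median r over the 36 pairs (0.72) was 0.79 as deviations from group means, 0.73 as CPM without logs, 0.73 without scaling factors, 0.70 by Spearman's rho, 0.69 to 0.82 with 1 mouse left out and 0.63 without both high mice. All of these lay within 1 jackknife SE (0.14). The limits are 3 or 4 mice per group, counts as low as 2 for Igf2, and mates of a read pair that may have been counted singly, which would make counting errors larger than the counts imply.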

Other observations

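Border macrophages, immune cells that lie beside fibroblasts at the vessels and the pia, were read through 10 genes tested. For genotype, 9 of 10 had an estimate above 0 under vehicle (median 0.50) and 9 of 10 under DHA (median 0.77), with no gene at p under 0.01 in edgeR. Over all 11 genes of the list, 1 of which did not pass the filter, the summed level ran from 19.1 to 35.5 CPM over the 15 mice. Under vehicle it was 27.4, 32.8, 26.6 and 21.2 CPM in Tg2576 mice 1 to 4, and 19.8 to 24.4 CPM in WT mice. Under DHA it was 20.7, 35.5 and 21.7 CPM in Tg2576 mice 1 to 3, and 19.1 to 24.3 CPM in WT mice. Only mouse 2 of the Tg2576 DHA group thus lay above the WT DHA range. Stab1 was at 13.6 to 21.4 CPM and Cd163 at 0.77 to 2.55 CPM.

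The arachnoid barrier list was led by Ptgds, the prostaglandin D synthase gene, at 165 to 1027 CPM, and by Cldn11, a tight junction gene that oligodendrocytes also express, at 96.4 to 174 CPM. For genotype under vehicle, 11 of its 12 genes had an estimate above 0 (median 0.40), and none had a p under 0.01. Mural cells and endothelium had medians of 0.058 and -0.0037 in that comparison, with 1 endothelial gene called, Ly6c1 (log2 fold change 0.58, SE 0.17, edgeR adjusted p = 0.250). Among all genes tested, 3.09% were called there.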
